A study of Mus musculus with 14 samples.

Results

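The genes described here are 45 components of the lysosome, measured as transcripts in mouse islet cells parted by the activity of a lysosomal enzyme. They were taken from the deposited count table by gene symbol, and all 45 were among its 52459 genes. Of these genes 16350 passed the filter on low counts, and all 45 components passed it. The list holds 18 hydrolases, 4 luminal cofactors, 7 membrane proteins and 16 subunits of the vacuolar proton pump, the V-ATPase. Cathepsins and the gene of the sorted enzyme itself are not in the list.

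All samples came from pancreatic islets of male C57BL/6J mice, an inbred laboratory strain, at an age of 7 months. The islets were dispersed into cells, and the cells were separated by fluorescence-activated sorting into a fraction with acidic beta-galactosidase activity (positive) and a fraction without it (negative). There were 7 libraries of each fraction, numbered 1 to 7 in both. The labels name no transgene, diet or drug for either fraction. The title places the comparison in a study of beta cell ageing and senescence, in which this activity serves as a marker of senescent cells. Whether each number stands for an animal of its own is not stated, so a p-value here reflects how much these libraries varied, part of which may be technical.

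Lysosomes are acidic organelles in which hydrolases break down sugars, lipids, proteins and glycosaminoglycans. The V-ATPase pumps protons into their lumen and sets the acidity at which these enzymes, including the sorted beta-galactosidase, work. In beta cells the same pump also acidifies insulin granules, where prohormones are processed. Many lysosomal genes are known targets of TFEB and related transcription factors, which bind a palindromic element built around the hexamer CACGTG.

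Total counts ranged from 11060144 to 23045934 reads in negative and from 15585779 to 24577025 in positive libraries, and the 45 genes took 0.739 to 0.886% of them. Levels are given as CPM, read counts divided by library size, with TMM factors of 0.969 to 1.03. The islet fractions were rich in beta cell transcripts: the summed level of 10 beta cell markers was 136261 ± 15737 CPM in negative and 117165 ± 10876 CPM in positive libraries (SD, n = 7 each). Other cell types differed between the fractions. The summed level of 14 macrophage markers was 17.9 to 25.4 CPM in negative and 85.6 to 738 CPM in positive libraries, and 13 of the 13 that could be tested rose. With the replicate number as a block 12 did: C1qa lost its call (edgeR adjusted p = 0.087), as it did in 8 of the 14 fits that left out 1 library. Their summed level was highest in positive 6 (738 CPM) and positive 7 (510 CPM), against at most 121 CPM in the other positive libraries. In negative libraries 4 of the 14 markers were above 1 CPM on average, C1qa (10.7 CPM), Cd68 (4.35 CPM), Csf1r (2.23 CPM) and Fcer1g (1.505 CPM), so that C1qa alone held much of the negative sum. The other 10 had means of 0.00678 (Cx3cr1) to 0.689 CPM (Mpeg1) there, Adgre1 and Ptprc being at 0.0547 and 0.107 CPM. The summed level of 12 endothelial markers was 4.25 to 70.9 CPM in negative and 398 to 1334 CPM in positive libraries, and 12 of 12 rose. The summed level of 8 acinar markers was lower in every positive library than in the negative one of the same number (20.02 to 616 CPM against 101 to 1014 CPM), and 5 of 8 fell, or 0 without the libraries numbered 6 and 7. The summed level of 3 delta cell markers was 226 ± 133 CPM in negative and 1185 ± 630.5 CPM in positive libraries (SD, n = 7 each), higher in 7 of 7 pairs, and 2 of 3 rose, Sst and Hhex. Of 9 pericyte and fibroblast markers tested 4 rose, Rgs5, Notch3, Des and Pdgfrb, or 2 without numbers 6 and 7. None was called lower, but 4 of the 9 had a log2 fold change below 0, the lowest being −2.27. Their summed level was 239 ± 536 CPM in negative and 116 ± 66.6 CPM in positive libraries (SD, n = 7 each). Negative 3 had the highest sum (1453.5 CPM), and the positive library was higher in 6 of 7 pairs. No beta cell, alpha cell or ductal marker was called by edgeR without the block, where 4 of 10, 1 of 5 and 4 of 4 had an unadjusted p below 0.05, and DESeq2 called 0, 1 and 2 lower. With the block 5 beta cell markers and all 8 acinar markers fell, and of the ductal markers 1 rose and 1 fell. In such sorted bulk samples, fewer cells of a type and less RNA per cell cannot be told apart.

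The promoter sequences are shown first because no measured value was used in searching them. The members themselves were chosen with earlier results of these data known. As many lysosomal genes are known targets of factors that bind an element around CACGTG, matches among them were likely in advance. A RefSeq promoter window (GRCm38.p6, 250 bases before to 50 after the start site) was found for 37 of the 45 genes. The windows were searched for the hexamer CACGTG, for the octamer TCACGTGA and for a decamer, this octamer with G before it and C after it. Each reads the same on both strands and contains the shorter one. The following stretches, written 5′ to 3′ on the strand of the gene, carry the matches in capitals, in the longest of the 3 forms that matched. The stretches of Lamp1, Dpp7, Gaa and Atp6v1a lie outside the exons GENCODE annotates, that of Atp6v0b reaches 4 bases into one, and those of Cln3 and Mcoln1 are cut to 30 bases because they lie within an annotated exon of the gene.
Lamp1, chr8:13159085-13159160, plus strand: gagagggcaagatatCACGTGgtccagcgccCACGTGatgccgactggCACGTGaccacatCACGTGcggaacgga
Dpp7, chr2:25356384-25356421, minus strand: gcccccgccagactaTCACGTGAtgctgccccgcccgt
Gaa, chr11:119267808-119267843, plus strand: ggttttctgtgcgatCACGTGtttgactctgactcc
Atp6v0b, chr4:117887330-117887380, minus strand: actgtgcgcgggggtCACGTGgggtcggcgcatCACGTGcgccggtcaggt
Atp6v1a, chr16:44139369-44139406, minus strand: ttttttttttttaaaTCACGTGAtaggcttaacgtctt
Cln3, chr7:126583340-126583369, minus strand: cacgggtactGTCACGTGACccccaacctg
Mcoln1, chr8:3500462-3500491, plus strand: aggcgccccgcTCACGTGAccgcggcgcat

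Lamp1, the major glycoprotein of the lysosomal membrane, held the hexamer 4 times, between 61 and 15 bases before its start site. The whole decamer was found once, in Cln3, a membrane protein mutated in a childhood storage disease. Of the 37 genes, 11 held the hexamer (29.7%), against 8.09% of all 26994 genes with a window and 11.6% of the genes tested here. The octamer was present in 6 (16.2%), against 1.13% of all genes and 2.15% of the genes tested. These 6 were Dpp7, Cln3, Mcoln1, Atp6v1a, Atp6v0d1 and Atp6v0e. By role, the octamer was in 3 of 11 V-ATPase genes, 1 of 16 hydrolases, 2 of 6 membrane proteins and 0 of 4 luminal cofactors. The windows of Lipa and Grn held none of the 3 forms. A match describes the letters in a window and was not tested for binding.

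The comparison of the fractions asked whether cells sorted on a lysosomal enzyme activity carried more transcript of the lysosome's other parts. Lipa, the acid lipase that splits cholesteryl esters and triglycerides, and Grn, the precursor of the lysosomal granulins, rose in positive cells, and no member fell. The other 43 were not called by edgeR's quasi-likelihood test, whose p-values were adjusted over all genes tested and called below 0.05. The 2 calls among 45 compare with 8.03% of all genes tested that were called, 6.4% higher and 1.63% lower. At an unadjusted p below 0.05 there were 5 members, Lipa, Grn, Tpp1, Man2b1 and Atp6v1a, all higher, against 3457 of the 16350 genes tested. DESeq2 called 2 members higher and 0 lower, against 1597 higher and 467 lower among the 22919 genes it tested. Without the libraries numbered 6 and 7, which stand apart in macrophage and endothelial markers, 1 member was called, Lipa, against 3.55% of all genes (3.28% higher and 0.275% lower).

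The estimates were precise for most members. For 42 of the 45 the 95% interval of the log2 fold change lay between −0.5 and 0.5, and the median standard error of the 43 genes not called was 0.06 on the log2 scale. Their log2 fold changes ran from −0.18 (Ids) to 0.26 (Npc1). The highest upper bound was that of Npc1, 0.59, a 1.504-fold rise, and the lowest bound was that of Ids, −0.39. Over all 45 members the median log2 fold change was 0.06, against 0.00037 over all genes tested, with 31 members above 0 and 14 below.

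The labelled numbers were taken to pair the libraries, as described under the processing, and a fit with the number as a block compares positive with negative cells within pairs. It called 5 members, all higher: Lipa, Grn, the peptidase Tpp1, the cholesterol transporter Npc1 and the pump subunit Atp6v1a. That fit called 19.6% of all genes, 11.8% higher and 7.77% lower. With the block and without numbers 6 and 7, Lipa and Grn were called, against 9.51% of all genes (6.36% higher and 3.14% lower).

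**Figure D1:**
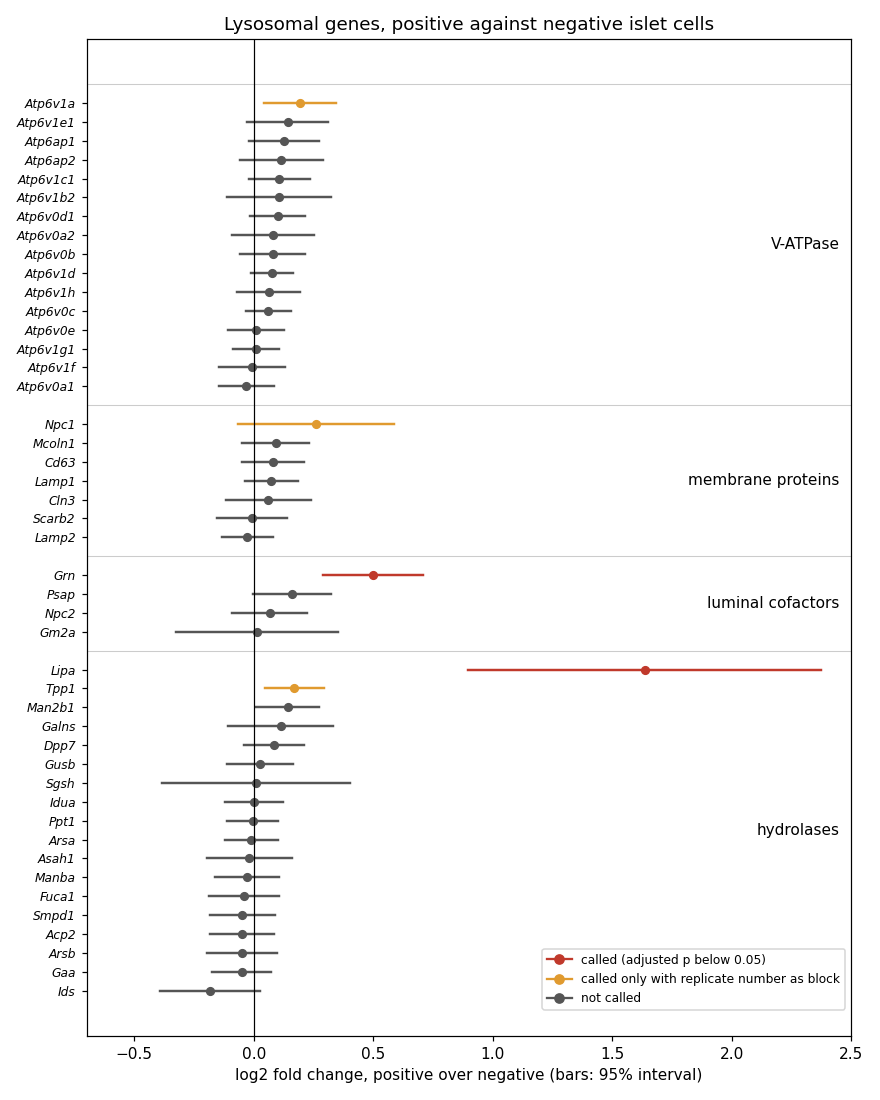
Log2 fold change of each of the 45 genes, positive over negative, by role; points are edgeR estimates and bars 95% intervals, n = 7 libraries each. Lipa (1.63) and Grn (0.50) stand to the right of the others, which lie between −0.18 and 0.26.

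Levels per kilobase of merged exon differed far more between the genes than between the fractions. Psap, which encodes the precursor of the saposins that present sphingolipids to their hydrolases, was the most abundant on this scale, at 574 ± 34.9 CPM per kilobase in negative and 641 ± 71.9 in positive cells (SD, n = 7 each). Lamp1 followed at 159 ± 5.18 and 168 ± 10.4 CPM per kilobase. The next was Atp6ap2, the accessory subunit also known as the prorenin receptor, at 142 ± 13.8 and 154 ± 16.9 CPM per kilobase. The spreads (mean ± SD) of Lamp1 and Atp6ap2 overlapped in both fractions, so their order is not resolved. Lipa was the lowest in negative cells, at 1.38 ± 0.0957 CPM per kilobase, and stood at 4.31 ± 3.07 in positive cells. The median over the 16 V-ATPase genes was 40.8 CPM per kilobase in negative cells, against 14.6 over the 18 hydrolases. Merged exons join those of every annotated transcript of a gene, and can be longer than the transcript that is expressed. The order of genes and these medians therefore depend on the annotation.

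**Figure D2:**
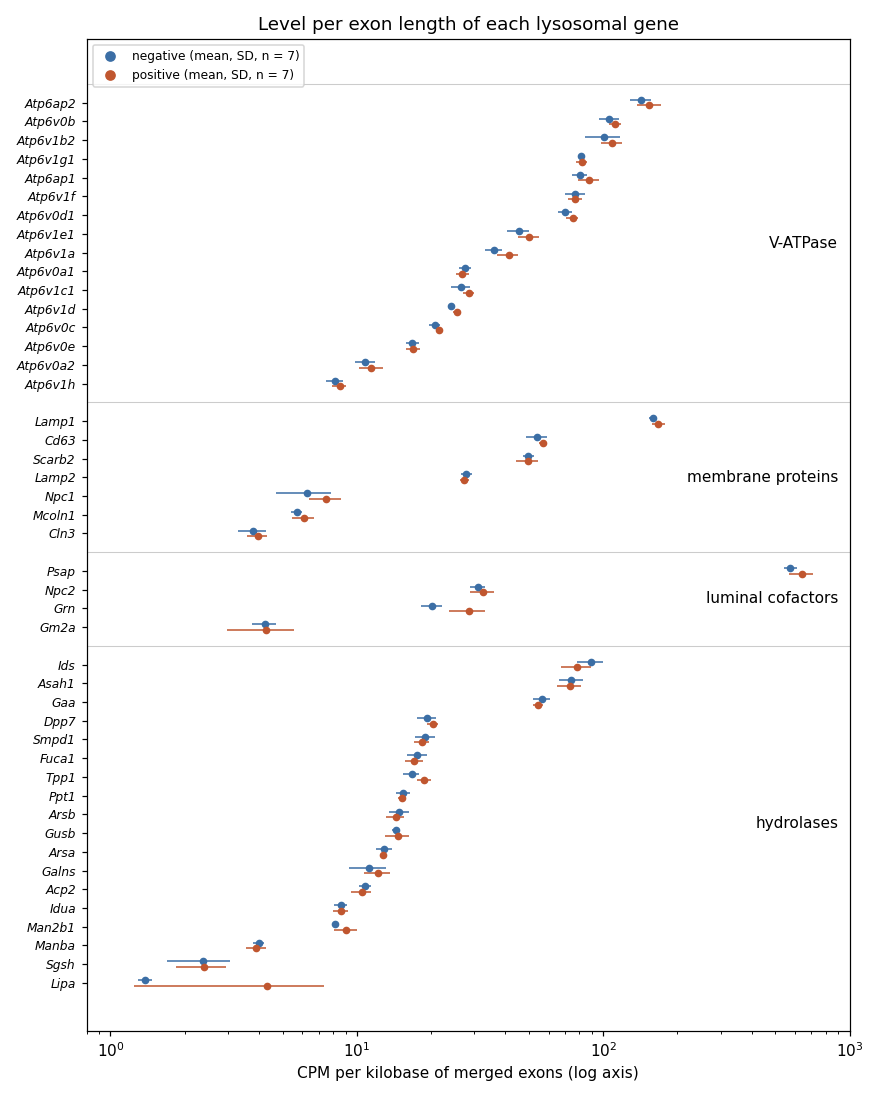
Mean level of each gene in CPM per kilobase of merged exons (log axis), with SD, in negative and positive libraries, n = 7 each. Both fractions lie close together for nearly every gene, while the genes range in negative cells from 1.38 (Lipa) to 574 (Psap).

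Among the hydrolases, Lipa (chromosome 19, 34492318 to 34527474, GRCm38) set the fractions apart. Its level in the negative libraries was 10.2, 8.89, 10.04, 9.67, 8.70, 9.67 and 8.59 CPM in the order of their numbers. In the positive libraries it was 17.9, 18.5, 16.7, 18.1, 16.1, 67.4 and 50.1 CPM. The groups did not overlap: every positive library was above every negative one, which held for 3.5% of all genes tested (the reverse for 0.355%), and positive 6 and 7 stood far above the other positive libraries. The means were 9.39 ± 0.649 and 29.3 ± 20.8 CPM (SD, n = 7 each), and edgeR estimated a log2 difference of 1.63 ± 0.34 (SE) with an adjusted p of 0.00759, or 0.025 with the block. Without the libraries numbered 6 and 7 the log2 fold change was 0.88 (edgeR adjusted p = 4.83e-05). Macrophage markers were 510 to 738 CPM in positive 6 and 7 and 85.6 to 121 CPM in positive 1 to 5. Endothelial markers were 1275 to 1334 CPM in positive 6 and 7 and 398 to 1016 CPM in positive 1 to 5. The part of either cell type in the levels of Lipa or Grn was not tested.

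Tpp1, a lysosomal tripeptidyl peptidase, was called only within pairs. Its level was 79.1, 93.0, 96.1, 82.8, 80.2, 87.5 and 83.9 CPM in negative and 89.8, 91.4, 107.7, 94.3, 95.1, 99.9 and 99.4 CPM in positive libraries, in the order of their numbers. The groups overlapped, and the positive library was higher in 6 of 7 pairs. The log2 fold change was 0.17 ± 0.06 (SE), with an edgeR adjusted p of 0.0927, or 0.0138 with the block. Without the libraries numbered 6 and 7 the blocked log2 fold change was 0.15, against 0.17 with them, and its edgeR adjusted p 0.0971.

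The remaining 16 hydrolases were called by neither fit. Among the enzymes that trim sugars from glycoproteins and glycogen, the acid alpha-glucosidase Gaa was at 269.8 ± 21.9 and 260.3 ± 12.2 CPM in negative and positive libraries (SD, n = 7 each). The log2 fold changes of the mannosidases Manba and Man2b1 were −0.03 and 0.14, and that of the fucosidase Fuca1 was −0.04. The enzymes of glycosaminoglycan breakdown were likewise close. Their log2 fold changes were 0.03 for the glucuronidase Gusb, 0.0025 for the iduronidase Idua, −0.05 for the sulfatase Arsb, 0.11 for the sulfatase Galns and 0.008 for the sulfamidase Sgsh. Sgsh was low, at 10.5 ± 2.99 and 10.6 ± 2.447 CPM, and its interval ran from −0.39 to 0.40.

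Ids, the iduronate sulfatase, had the lowest log2 fold change of all members. Its level in negative libraries had a lowest value of 360.4, a median of 469 and a highest value of 519 CPM, against 313, 389 and 486 CPM in positive ones. The groups overlapped widely, although the positive library was lower in 6 of 7 pairs. The log2 fold change was −0.18 ± 0.10 (SE, edgeR adjusted p = 0.305; 0.0798 with the block).

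The sphingolipid enzymes gave log2 fold changes of −0.02 for the ceramidase Asah1, −0.05 for the sphingomyelinase Smpd1 and −0.01 for the sulfatase Arsa. The thioesterase Ppt1, which removes fatty acids from proteins, was at −0.005, the dipeptidyl peptidase Dpp7 at 0.08 and the acid phosphatase Acp2 at −0.05. Of the 18 hydrolases, 8 were above 0 and 10 below.

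The luminal cofactors carry no hydrolase activity of their own and were led by Grn (chromosome 11, 102430315 to 102437048). Its level was 78.3, 72.4, 76.3, 58.2, 65.8, 71.8 and 67.2 CPM in negative libraries and 92.0, 108.7, 95.6, 81.3, 80.7, 126.2 and 108.3 CPM in positive ones. The groups did not overlap, the highest negative level (78.3 CPM) lying just under the lowest positive one (80.7 CPM). The log2 fold change was 0.50 ± 0.10 (SE, edgeR adjusted p = 0.00331; 0.000754 with the block), a 1.41-fold rise. Without the libraries numbered 6 and 7 it was 0.38, with an edgeR adjusted p of 0.0805, or 0.00444 with the block. Grn was at 108.7 CPM in positive 2 and 108.3 CPM in positive 7. In positive 1 to 5, in the order of their numbers, macrophage markers summed to 117, 121, 85.6, 119 and 108 CPM. Endothelial markers summed to 599, 1016, 427, 511 and 398 CPM there. The part of either in the level of Grn was not tested.

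Psap was higher on the positive side of each of the 7 pairs but was not called. Its lowest, median and highest levels were 1431, 1577 and 1717 CPM in negative and 1546, 1736 and 2120 CPM in positive libraries, the last of these in positive 6. The log2 fold change was 0.16 ± 0.08 (SE, edgeR adjusted p = 0.242; 0.0951 with the block). Gm2a, the activator protein of ganglioside breakdown, was at 15.6 to 19.9 CPM in negative libraries. In the positive ones it was 14.7, 18.7, 10.9, 14.9, 15.1, 25.8 and 23.7 CPM, so that 2 of the 7 positive libraries, numbers 6 and 7, were above every negative one and 4 were below every negative one. Its log2 fold change was 0.01 ± 0.16 (SE) with all libraries and −0.30 without numbers 6 and 7, with an edgeR adjusted p of 0.972 and 0.365. Npc2, which hands cholesterol to Npc1, gave 0.07 ± 0.07 (SE, adjusted p = 0.664 by edgeR), and −0.04 without those libraries.

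**Figure D3:**
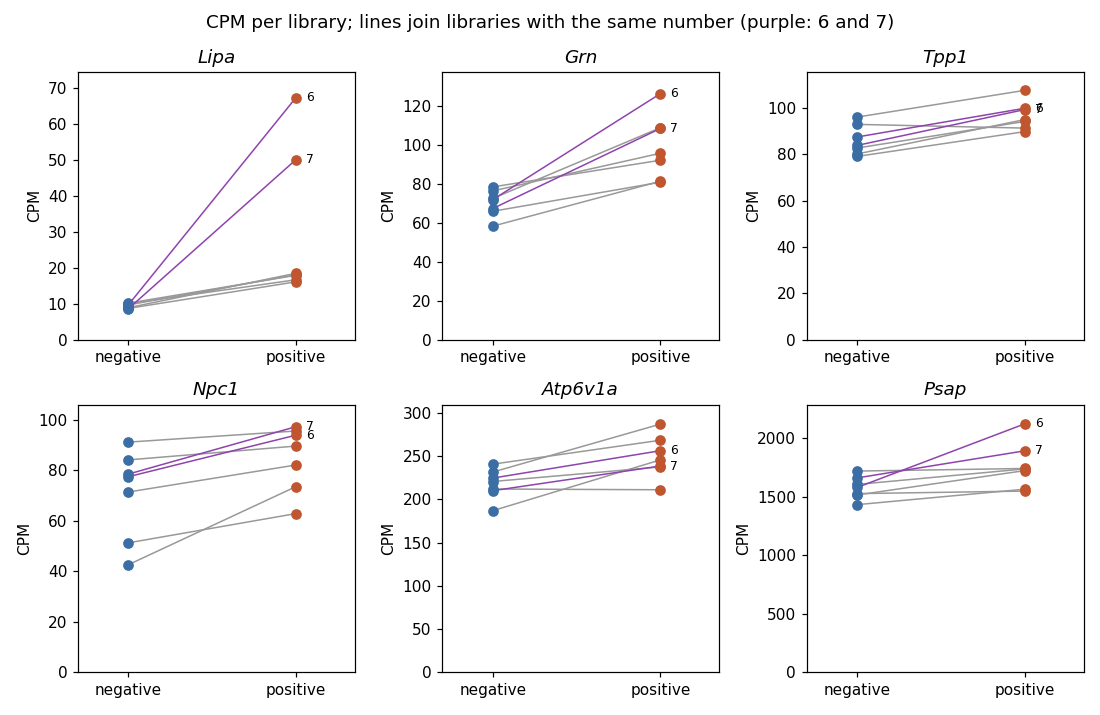
CPM of 6 genes in each library, with lines joining the negative and positive library of the same number and purple lines for numbers 6 and 7; n = 7 pairs. Lipa and Grn do not overlap between the fractions, Tpp1, Npc1, Atp6v1a and Psap do.

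None of the 7 membrane proteins was called by edgeR without the block, none had an unadjusted p below 0.05, and DESeq2 called 0. Lamp1 and Lamp2, the heavily glycosylated proteins that line the organelle's inner face, were at 426 ± 13.9 against 448 ± 27.8 CPM and at 266.0 ± 13.2 against 261 ± 10.7 CPM (SD, n = 7 each). Their log2 fold changes were 0.07 and −0.03. The tetraspanin Cd63 (0.08), the receptor Scarb2, which carries an enzyme to the lysosome (−0.0079), the calcium channel Mcoln1 (0.09) and Cln3 (0.06) were as close. A pseudogene named after Cd63 is in the count table, and how reads were shared with it is uncertain.

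Npc1, the membrane transporter that exports cholesterol, varied most of the 7 between libraries, relative to its mean. Its level was 42.6, 51.3, 91.2, 84.2, 71.4, 77.5 and 78.5 CPM in negative and 73.6, 62.9, 95.6, 89.6, 82.1, 94.0 and 97.3 CPM in positive libraries. The groups overlapped, yet each of the 7 pairs was higher on its positive side, which held for 11.1% of all genes tested (lower in each pair: 6.93%). The low negative libraries, 1 and 2, had the low positive partners. The log2 fold change was 0.26 ± 0.15 (SE, edgeR adjusted p = 0.359), and with the block 0.29 ± 0.08 (adjusted p = 0.0229). With the block and without numbers 6 and 7 it was again 0.29, with an edgeR adjusted p of 0.133.

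None of the 16 V-ATPase genes was called by edgeR without the block (1 had an unadjusted p below 0.05, and DESeq2 called 0), and 14 of them had a log2 fold change above 0. The median was 0.08 and the range −0.03 to 0.19, against a median of −0.0076 over the hydrolases. Over the 21 alternatives tried, 12 to 15 of the 16 stayed above 0 and their median ran from 0.05 to 0.09, while that of the hydrolases ran from −0.05 to −0.00046. The 2 lists were not tested against each other. The contrast depends on which hydrolases are listed. Over 24 further lysosomal hydrolases, described below, the median was 0.11, with 19 above 0 and 5 below.

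The V1 sector, the cytosolic part that hydrolyses ATP, held the highest value. Atp6v1a, its catalytic subunit, was at 187.0, 212, 232, 241, 221, 225 and 210.1 CPM in negative and at 246, 211, 287, 268, 238, 256 and 239 CPM in positive libraries. The groups overlapped, with a higher positive library in 6 of 7 pairs. The log2 fold change was 0.19 ± 0.07 (SE, edgeR adjusted p = 0.122; 0.0218 with the block). With the block and without numbers 6 and 7 it was again 0.19, with an edgeR adjusted p of 0.0993.

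Atp6v1e1, a stalk subunit, followed at 0.14 ± 0.08 (SE, edgeR adjusted p = 0.331; 0.0529 with the block). Atp6v1b2, the nucleotide-binding partner of the catalytic subunit, was at 367 to 650 CPM in negative and 487 to 660 CPM in positive libraries, with negative 1 lowest. Each of the 7 pairs was higher on its positive side, and the log2 difference was 0.11 ± 0.10 (SE), at an edgeR adjusted p of 0.607. The subunits Atp6v1c1 (0.11), Atp6v1d (0.08), Atp6v1h (0.06), Atp6v1g1 (0.0082) and Atp6v1f (−0.0074) completed the V1 sector.

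The V0 sector is the membrane ring through which protons pass. Atp6v0c, the ring's proteolipid, was at 70.1 ± 3.52 and 73.1 ± 1.93 CPM (SD, n = 7 each; log2 fold change 0.06), and a pseudogene named after it is in the table. The 2 isoforms of the proton-path subunit that are members gave −0.03 (Atp6v0a1) and 0.08 (Atp6v0a2). A further isoform outside the member list, Tcirg1, rose by 1.62 ± 0.33 (SE, edgeR adjusted p = 0.0056) and is described with the other lysosomal genes. Both Atp6v0a2 and Atp6v0c were higher on the positive side of each of the 7 pairs. The remaining V0 members gave 0.10 (Atp6v0d1), 0.08 (Atp6v0b) and 0.01 (Atp6v0e). The accessory subunits Atp6ap1 and Atp6ap2, which help assemble the pump, were at 0.13 ± 0.07 and 0.11 ± 0.08 (SE), with edgeR adjusted p of 0.314 and 0.465.

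Summed over its 16 genes, V-ATPase transcript was 2455, 2750.1, 2975, 2797, 2888, 2822 and 2873 CPM in negative and 2809, 2809, 3195, 3031, 2937, 3106 and 2999.6 CPM in positive libraries. Each of the 7 pairs was higher on its positive side, most in pair 1, whose negative library was the lowest of all. The summed hydrolases were 1741 ± 62.6 and 1709 ± 88.5 CPM (SD, n = 7 each), higher in 4 of 7 pairs. The 4 luminal cofactors summed to 1831 ± 87.6 and 2052 ± 227 CPM, also higher in 7 of 7 pairs, and the 7 membrane proteins to 1338 ± 31.2 and 1383 ± 65.8 CPM, higher in 5. Psap made up most of the cofactor sum, with means of 1575 and 1759 CPM. Psap and Grn were each higher in 7 pairs, Npc2 in 4 and Gm2a in 2. The ratio of the V-ATPase to the hydrolase sum was 1.61 ± 0.144 in negative and 1.75 ± 0.0916 in positive libraries, and higher in all 7 pairs. The count of pairs depended on Ids: without it, a choice made after seeing the data, the ratio was higher in 5 of 7 pairs. The 24 further hydrolases, which are not in this ratio, summed to 1848 ± 65.7 CPM in negative and 2037 ± 187 CPM in positive libraries. That sum was higher in 6 of 7 pairs.

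**Figure D4:**
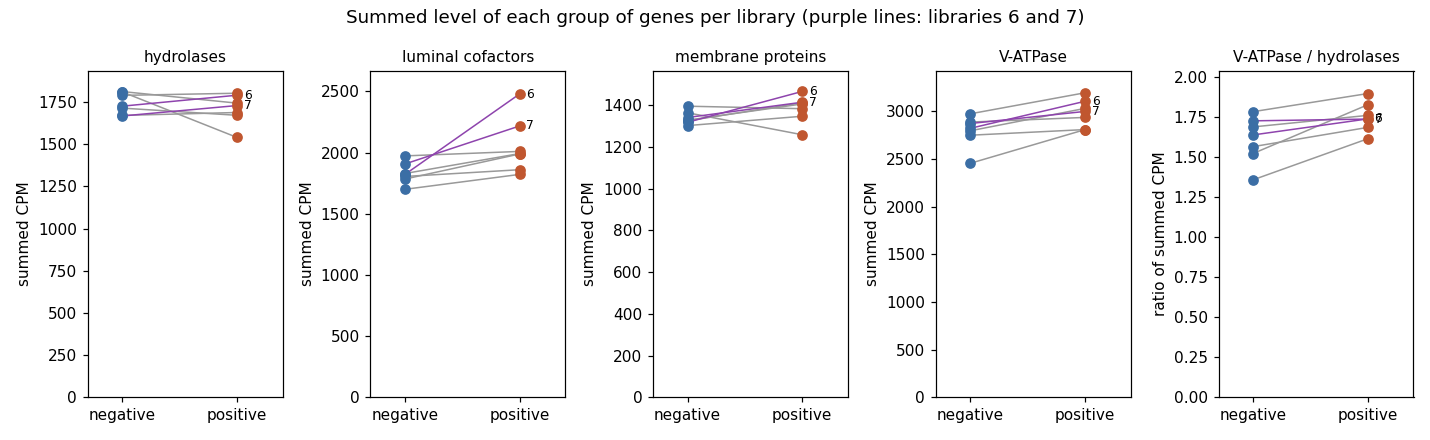
Summed CPM of the hydrolases, luminal cofactors, membrane proteins and V-ATPase genes, and the ratio of the V-ATPase to the hydrolase sum, in each library, with lines joining equal numbers (purple: 6 and 7); n = 7 pairs. The V-ATPase and luminal cofactor sums and the ratio are higher on the positive side of each of the 7 pairs, the membrane protein sum in 5 and the hydrolase sum in 4. Psap makes up most of the luminal cofactor sum.

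Positive 6 and 7 stood apart for a part of the members. In 11 of the 45 genes both were above all of positive 1 to 5, against 11.9% of all genes tested. These were 6 hydrolases (Lipa, Gusb, Man2b1, Smpd1, Ppt1 and Acp2), 3 luminal cofactors (Psap, Gm2a and Npc2) and the pump genes Atp6v1g1 and Atp6ap1. The gap was large for Lipa, at 50.1 and 67.4 CPM against at most 18.5 CPM, and small for Smpd1, at 64.8 and 67.1 CPM against at most 64.1 CPM. In no member were negative 6 and 7 both above negative 1 to 5. Macrophage and endothelial markers were both at their highest in positive 6 and 7, and the part of either in these levels was not tested. Negative 6 and 7 also had more marker RNA than negative 1 to 5. Endothelial markers were at 70.9 and 63.1 CPM there, against at most 10.1 CPM. Macrophage markers were at 24.6 and 25.4 CPM, against at most 20.6 CPM, and delta cell markers at 435 and 354 CPM, against at most 268 CPM.

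**Figure D5:**
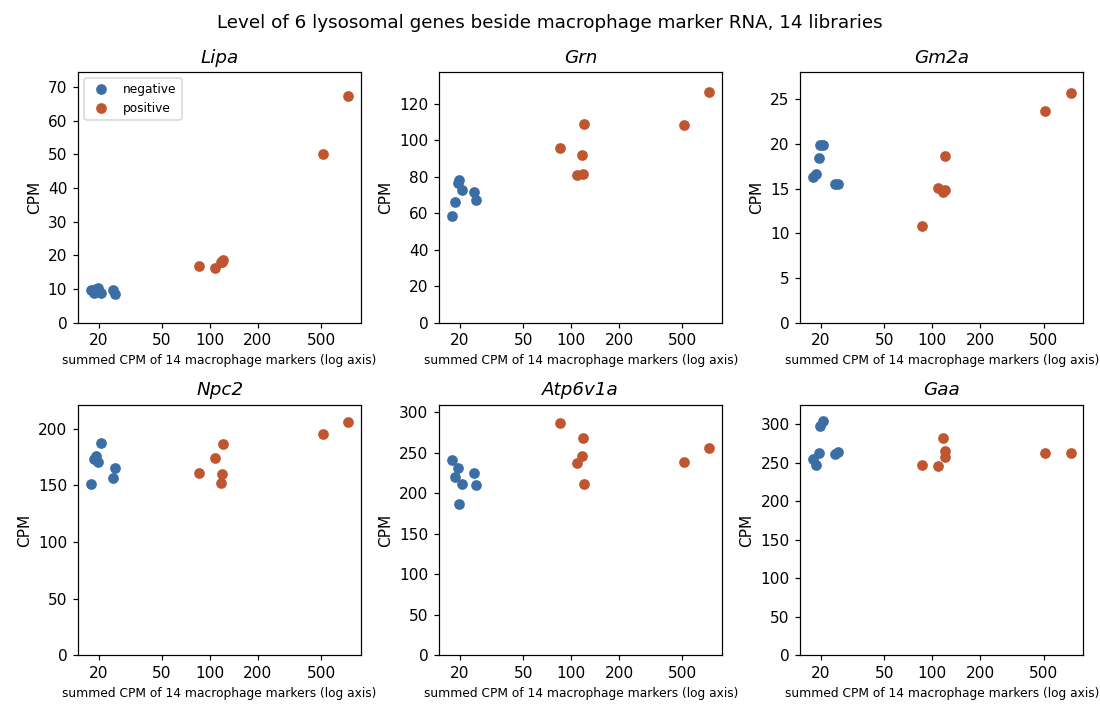
CPM of 6 members against the summed CPM of 14 macrophage markers (log axis) in the 14 libraries. In positive 6 and 7, at 510 to 738 CPM of markers, Lipa, Gm2a and Npc2 are at their highest, while Gaa and Atp6v1a are within the range of the other libraries. Endothelial markers, not drawn here, are also at their highest in positive 6 and 7.

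Other lysosomal genes, from lists chosen by function, gave a wider range. Of 10 further pump isoforms only 3 were expressed enough to be tested, and 1 rose. This was Tcirg1, the a3 isoform known from osteoclasts and macrophages, which went from 6.36 ± 1.504 to 19.8 ± 12.4 CPM (SD, n = 7 per fraction). Its log2 difference was 1.62 ± 0.33 (SE), with an edgeR adjusted p of 0.0056. Of 24 further hydrolases 3 rose and none fell, with a median log2 fold change of 0.11. Among them were Acp5, the tartrate-resistant phosphatase (6.17), and the asparaginyl peptidase Lgmn (1.33). With the block, 6 of the 24 rose and 1 fell. Of all genes tested, 6.4% rose and 1.63% fell without the block, and 11.8% rose and 7.77% fell with it. Without numbers 6 and 7, Tcirg1 (1.01), Acp5 (7.10) and Lgmn (0.66) were still called higher by edgeR, and 2 of the 24 hydrolases were called in all. Macrophage and endothelial markers were both higher in positive libraries too, and the part of either in these genes was not tested.

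Of 21 further membrane proteins tested, 4 rose and 1 fell, with a median of 0.06, against 6.4% and 1.63% of all genes tested that rose and fell. Laptm5 (5.91), the metal transporter Slc11a1 (5.51) and Cd68 (2.28) rose most, with log2 fold changes of 5.03, 4.98 and 1.598 without numbers 6 and 7, and Laptm5 and Cd68 are also in the macrophage marker list. Clcn7, the chloride-proton exchanger of the lysosomal membrane, rose from 47.7 ± 3.77 to 59.7 ± 5.86 CPM (SD, n = 7 per fraction) and was higher in 7 of 7 pairs, by 0.32 ± 0.07 on the log2 scale (SE, edgeR adjusted p = 0.00728). Without numbers 6 and 7 its log2 fold change was 0.31 (edgeR adjusted p = 0.0481). Abca2, a lipid transporter, fell by 0.26 on the log2 scale (adjusted p = 0.0466 by edgeR), a call that held only without negative 3 or 5 or positive 1 or 4 among the fits that left out 1 library and was lost without numbers 6 and 7 (log2 fold change −0.22, edgeR adjusted p = 0.359). With the block, 6 of the 21 rose and 2 fell, against 11.8% and 7.77% of all genes tested. None of 10 genes of enzyme sorting to the lysosome was called by edgeR. At an unadjusted p below 0.05 there were 4, against 3457 of the 16350 genes tested, and DESeq2 called 0 of the 10. With the block the mannose 6-phosphate receptor Igf2r rose (0.22) and Sumf1, which activates sulfatases, fell (−0.15).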

How the data were processed

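RNA of sorted islet cells was sequenced as polyadenylated, directional libraries, 7 per fraction, per the labels' protocols. Per the submitters' processing notes, the authors aligned reads to GRCm38 with Subread and counted them per gene with featureCounts; versions, annotation, strand setting and treatment of multiply mapped reads are not given in the sources used here. What the authors deposited is a table of unnormalized read counts by gene. Without the strand setting, reads cannot be told apart where a member overlaps a gene on the other strand; this covered over 15% of the exon length of Arsb, Sgsh and Arsa in GENCODE M21.

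Genes were filtered with filterByExpr, scaled by TMM and tested with the quasi-likelihood F-test of edgeR 4.0.16 in R 4.3.3, two-sided, with group as the only term and Benjamini-Hochberg adjustment over 16350 genes. Standard errors were derived from the F statistic. CPM used the TMM-scaled library sizes. Exon lengths came from GENCODE M21 and promoter windows from RefSeq on GRCm38.p6. The method was tested on simulated counts drawn independently for each library. They held no effect of pairs and no differences in cell content, so that test does not cover these features of the libraries. Any 2 libraries of a fraction differed by more than counting noise (chi-square at least 5.36 per degree of freedom).

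Replicate numbers were taken to pair the libraries: deviations from group means of equal numbers correlated with 0.203 to 0.541 in the 7 pairs, while unequal numbers had a median of −0.125. Because deviations within a group cancel out, positive correlations of equal numbers make the unequal ones negative on average, so that value is in part arithmetic. Numbers 3 and 7 did not correlate highest with their own number, the other 5 did. The pairing comes from the titles and these correlations. Alternatives were the replicate block, 2 other scalings, no filter, DESeq2 1.42.0, each library left out, and numbers 6 and 7 left out. Members and gene lists were chosen with earlier results of these data known. Every member may be named; members called by either fit, or at the ends of their role group, have full values, and at most 6 called genes of any other list are named. The values of 1 gene of these other lists are not reported here.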

Additional observations from a re-analysis of the deposited data

Results flagged for a closer look

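The level of each of the 45 genes in each fraction was checked for a library far from the other 6, which chance gives in about 1 of 20 groups, and 5 of 90 levels had one. Smpd1 was at 74.9 CPM in negative 1, against at most 65.1 CPM in the other negative libraries. Dpp7 was at 75.0 CPM in positive 3, with the next positive library at 68.3 CPM. Acp2 was at 50.1 CPM in negative 2, with the next at 55.4 CPM. Lamp2 was at 238.9 CPM in positive 2, with the next at 258 CPM. Atp6v0d1 was at 150.8 CPM in positive 6, with the next at 135.1 CPM. None of these 5 genes was called. The summed V-ATPase and hydrolase levels had no such library.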

How the results depend on the processing

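The replicate block, which compares libraries of the same number, called 5 members higher, including 1 V-ATPase gene and 2 hydrolases, and changed no other member's call; over all genes it called 1930 higher and 1270 lower. DESeq2 called 1597 higher and 467 lower over all genes, and left both member calls in place. Without numbers 6 and 7, 1 member was called, with 536 genes higher and 45 lower, and with the block added 514 lower. Leaving out 1 library at a time gave 140 (without positive 6) to 616 (without negative 3) genes lower, and both member calls held each time.

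Log2 fold changes that changed sign all belong to members not called. Without numbers 6 and 7 they were −0.052 for Gusb, −0.00026 for Idua, −0.07 for Sgsh, −0.3 for Gm2a, −0.042 for Npc2, 0.02 for Atp6v0a1 and −0.023 for Atp6v1g1, and with the block as well −0.054, −0.0037, −0.033, −0.31, −0.042, 0.02 and −0.023. Under the block alone Gm2a was −0.027. Upper quartile scaling gave −0.014 for Idua, −0.013 for Sgsh, −0.0047 for Gm2a, −0.0046 for Atp6v0e and −0.0077 for Atp6v1g1, and no filter −0.018, −0.014, −0.0065, −0.0085 and −0.011. Idua was −0.0027 with RLE size factors and −0.00037 with DESeq2. Leaving out 1 library moved Gusb from −0.023 to 0.054, Asah1 from −0.075 to 0.0082, Idua from −0.043 to 0.01, Sgsh from −0.11 to 0.13, Ppt1 from −0.031 to 0.0081, Gm2a from −0.12 to 0.11, Scarb2 from −0.037 to 0.025, Atp6v0e from −0.027 to 0.023, Atp6v1f from −0.051 to 0.016 and Atp6v1g1 from −0.02 to 0.021. The cause was not tested. Scaling moved the median of all genes by less than 0.1.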
